A study of Mus musculus with 6 samples.

Results

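Potassium channel genes were examined in the left ventricle of mice in heart failure induced by myocardial infarction (MI), in which muscle dies because its coronary artery is blocked. The set holds every gene in the deposited tables whose symbol starts with Kcn, without the antisense transcript Kcnq1ot1, together with Abcc8 and Abcc9, which encode the regulatory subunits of ATP-sensitive potassium channels. These are 100 of 34745 listed genes, and 96 of them are protein-coding. All 6 libraries came from infarcted mice and fall into 2 groups of 3. MI-NS is the comparison group, whose abbreviation NS the labels do not spell out, and MI-DAPA mice received dapagliflozin, which inhibits SGLT2, a glucose transporter of the kidney. Strain, age, sex, dose, time after infarction and the share of scar in each sample were not given, no library came from an uninfarcted heart, and the labels call the libraries biological replicates without naming animals. The p-values therefore measure the spread between these libraries.

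Potassium channels carry the outward current that ends each heartbeat's action potential and holds the resting potential. Voltage-gated (Kv) channels open on depolarisation and include the transient outward current and the delayed rectifiers. Inward rectifiers set the resting potential, and some of them open with acetylcholine or when ATP is low. Tandem-pore channels carry background current, and calcium-activated channels link potassium flow to intracellular calcium. Loss of repolarising potassium current, with a longer action potential, is a well-known feature of failing heart muscle.

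Several pore-forming and regulatory genes of named cardiac potassium currents were higher in MI-DAPA, while others of the same currents did not pass. Of 100 members, 49 had at least 10 counts in at least 3 libraries and were tested. With edgeR's quasi-likelihood test and Benjamini-Hochberg adjustment over all 13984 tested genes, 12 rose, 2 fell and 35 did not pass an adjusted p of 0.05. Among all tested genes 16.5% were called, 8.65% higher and 7.81% lower, against 24.5% higher and 4.08% lower among the tested members. Among the 12 that rose were Kcnd2, Kcnip2, Kcnh2, Kcnq1, Kcnj2, Kcnj12, Kcnj3, Kcnj5, Kcnj11, Abcc9 and Kcnk3, and the 12 rises were 1.28-fold to 1.88-fold with a median log2 change of 0.68. The genes that fell were Kcne4 and Kcnj15. The median log2 change was 0.09 over the tested members and -0.02 over all tested genes. In 15 members every MI-DAPA library lay above every MI-NS library and in 6 every one lay below, beside 18.4% of all tested genes in each direction.

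Each of the 12 rises belonged to a gene on lists of named cardiac currents, which were drawn up with earlier results of these data known. Of 26 genes on the lists for these currents, 23 were tested, 12 rose, 0 fell and 11 did not pass, with a median log2 change of 0.48 and 5 changes below 0. Kcna5 was the only gene of these lists with a lower level at an unadjusted p under 0.05. Outside these lists 26 members were tested, 0 rose and 2 fell, with a median of -0.26. In all, 23 of the tested members had an unadjusted p under 0.05, the 14 called members among them.

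Bulk levels do not separate fewer cells of a type from less RNA per cell. Of 10 cardiomyocyte markers 6 rose and 0 fell, with a median log2 change of 0.38 and summed levels of 42314 to 44301 CPM in MI-NS, against 51862 to 55090 CPM in MI-DAPA. All 10 had levels far above 0, and their log2 changes ranged from -0.01 (Tnnt2) to 0.64 (Ryr2). Set against the mean log2 level of these markers in the same library, a scale added after the data were seen, the 12 members that rose had differences of 0.03 (Kcnip2) to 0.60 (Kcnj3), all above 0. Markers whose change exceeds the mean of their list, such as Ryr2, also lie above 0 on this scale. In 6 of the 12 members, Kcnj11, Kcnj12, Kcnh2, Kcnq1 and Abcc9 among these, the groups still did not overlap (exact two-sided permutation p = 0.1 for each, the smallest possible). On this scale all MI-DAPA libraries lay above all MI-NS libraries in 3.1% of all tested genes and below them in 52%. The 12 had been picked for their rise, so their differences above 0 and the share without overlap among them are a description. In the other 6 members the groups overlapped, with Kcnk3 at 0.15 and Kcnj2 at 0.25.

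Files of the libraries numbered 3 carry names in a different style from the others, in both groups. Without both, 22 genes of all kinds and 0 members were called by edgeR with 2 libraries per group, and the adjusted p of the 14 called members were 0.0718 to 0.147. In each of the 14 the groups did not overlap over all 6 libraries. The same direction in any part of these libraries was therefore fixed and is no separate support. The 12 members lay 0.45 to 0.92 higher on the log2 scale in replicates 1 and 2, and 0.20 to 0.96 higher between the replicates numbered 3 alone, where there is no test. Kcne4 and Kcnj15 were lower in both. With each of the 6 libraries left out in turn, 7 of the 14 kept their call throughout: Kcnj11, Kcnj12, Kcnh2, Kcnq1, Abcc9, Kcnk3 and Kcne4. Kcnd2, at 0.64, had an adjusted p of 0.0516 without MI-NS replicate 3.

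Levels can be compared between genes only per length of transcript. On the scale of CPM (a gene's count as a rate per total count of its library, with totals adjusted by TMM factors) per kilobase of annotated exon, averaged over the 6 libraries, the highest level was that of Kcnk3 (38.4), which encodes the acid-sensitive background channel TASK. It was followed by Abcc9 (30.3), Kcnip2 (26.1), the modifier subunit gene Kcng2 (21.7), Kcna5 (15.1) and, after Kcnh2, Kcnj8 (13.6). Of 11 tested members with a level of 5 or more CPM per kb, 8 rose and 0 fell. Of 13 members between 1 and 5, 4 rose and 1 fell, and of 25 members under 1, 0 rose and 1 fell. The share of all tested genes called at each of these levels was not computed. Standard errors tended to be larger at low counts, up to 0.77 (Kcnn3), so the calls by level are a description. Kcnj11 has no firm place in this order: its level was 10.2 CPM per kb by annotated exon length, but 32.1 if counts were taken over the deposited span of 1173 bases alone.

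**Figure D1:**
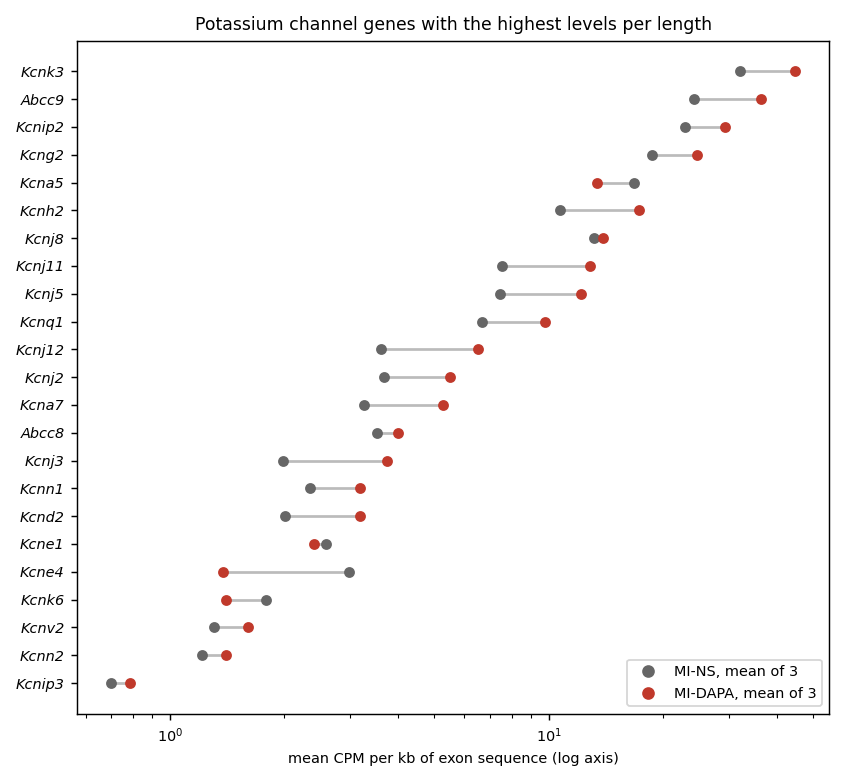
Mean level of 23 of the 25 potassium channel genes with the highest levels, in CPM per kb of exon on a log axis, with MI-NS in grey and MI-DAPA in red (mean of 3 libraries each). Kcnk3 is highest at 32.1 in MI-NS, against 44.8 in MI-DAPA, Kcna5 and Kcne4 are among the genes lower in MI-DAPA, and the place of Kcnj11 depends on the length used.

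Among the Kv channels, 4 genes of the transient outward current, the early repolarising current of the mouse ventricle, were tested and 2 rose. Kcnd2 (ENSMUSG00000060882, mm10 chromosome 6, 21215503 to 21729805), a pore subunit of the fast component, had 12.2, 8.67 and 10.2 CPM in MI-NS replicates 1 to 3 and 15.8, 17.5 and 15.7 CPM in MI-DAPA replicates 1 to 3. All MI-DAPA libraries were above all MI-NS libraries. The rise was 1.57-fold, a log2 change of 0.65 ± 0.14 (SE, n = 3 per group, edgeR adjusted p = 0.0151). Kcnip2 (ENSMUSG00000025221, chromosome 19, 45791839 to 45816061) encodes KChIP2, the auxiliary subunit that brings these channels to the membrane. Its levels were 83.6, 71.2 and 83.8 CPM in MI-NS, against 114, 94.9 and 96.1 CPM in MI-DAPA, without overlap, and MI-DAPA replicate 1 stood highest. This was the smallest of the 12 rises at 1.28-fold (log2 0.36 ± 0.10, edgeR adjusted p = 0.0456), and it lost its call with any of the 6 libraries left out, with log2 changes of 0.26 to 0.41.

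The remaining genes of this current did not pass. Kcnd3, the second pore subunit, had 10.9, 3.82 and 2.85 CPM in MI-NS, against 3.33, 3.35 and 4.08 CPM in MI-DAPA, so that MI-NS replicate 1 alone stood far above the other 5 libraries. Its log2 change was -0.73 ± 0.45 (edgeR adjusted p = 0.301), and 0.10 without MI-NS replicate 1. An antisense transcript, Kcnd3os, shares exon bases with it but had at most 11 counts. Kcna4, the pore subunit of the slow transient outward component, was low at 1.24 to 1.60 CPM in MI-NS, against 1.74 to 2.26 CPM in MI-DAPA (log2 0.48 ± 0.24, edgeR adjusted p = 0.214). Within each library the ratio of Kcnd2 to Kcnd3 (counts per kb) was 2.08, 4.22 and 6.63 in MI-NS, against 8.86, 9.71 and 7.16 in MI-DAPA. The ratio was higher in every MI-DAPA library (exact two-sided permutation p = 0.1, the smallest that 3 against 3 allows). The ratio of Kcnip2 to Kcnd2 overlapped between the groups, at 11.5 ± 1.2 and 9.28 ± 1.33 (SD, n = 3, exact permutation p = 0.2).

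Kcna5 encodes a pore subunit of the slowly inactivating Kv currents of the mouse ventricle, and its level was lower in MI-DAPA without passing. Kcna5 had 40.8, 54.6 and 48.6 CPM in MI-NS, against 35.1, 43.8 and 35.8 CPM in MI-DAPA. MI-DAPA replicate 2 lay above MI-NS replicate 1, and the log2 change of -0.33 ± 0.13 did not pass (edgeR adjusted p = 0.119).

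Delayed rectifier genes rose in their pore subunits. Kcnh2 (ENSMUSG00000038319, chromosome 5, 24319589 to 24351604), the pore subunit of the rapid delayed rectifier, had 54.3, 52.5 and 48.3 CPM in MI-NS, against 96.5, 73.3 and 82.0 CPM in MI-DAPA. MI-DAPA replicate 1 was the highest library, and the groups did not overlap. The rise was 1.62-fold (log2 0.70 ± 0.11, edgeR adjusted p = 0.00601). Kcnq1 (ENSMUSG00000009545, chromosome 7, 143106362 to 143427042), the pore subunit of the slow delayed rectifier, had 26.7, 25.8 and 29.5 CPM in MI-NS, against 39.5, 38.6 and 42.4 CPM in MI-DAPA. Both groups were tight, and the rise was 1.47-fold (log2 0.56 ± 0.09, edgeR adjusted p = 0.00625). The antisense Kcnq1ot1 shares exon bases with Kcnq1 and had at most 67 counts, against 796 for Kcnq1. The sources used here do not say whether counting used strand.

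The beta subunits that pair with Kcnq1 did not rise. Kcne1, its main partner in the slow delayed rectifier, had 7.23, 8.48 and 9.15 CPM in MI-NS, against 6.16, 8.51 and 8.50 CPM in MI-DAPA, with overlapping groups (log2 -0.10 ± 0.17, edgeR adjusted p = 0.724). Kcne4 (ENSMUSG00000047330, chromosome 1, 78816758 to 78820028), a beta subunit known to inhibit Kcnq1 channels in expression systems, had 8.91, 7.06 and 7.72 CPM in MI-NS, against 2.98, 4.23 and 3.79 CPM in MI-DAPA. Every MI-DAPA library was far below the lowest MI-NS library. The fall was 2.15-fold (log2 -1.11 ± 0.18, edgeR adjusted p = 0.00628), and the call held with each library left out. The ratio of Kcnq1 to Kcne1 was 2.61 ± 0.265 in MI-NS, against 4.17 ± 0.772 in MI-DAPA per kb. That of Kcnq1 to Kcne4 was 2.26 ± 0.282 and 7.27 ± 1.34 (SD, n = 3, exact permutation p = 0.1 for each). For Kcne4 this outcome was fixed, and its p is no test. Every MI-DAPA library already lay above every MI-NS library in Kcnq1 and below in Kcne4. Kcne2, a beta subunit linked to the rapid delayed rectifier, had at most 3 counts in any library and was not tested.

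Inward rectifiers were the class with the largest share of calls: of 15 members 8 were tested, 5 rose, 1 fell and 2 did not pass, with a median log2 change of 0.65. Kcnj2 (ENSMUSG00000041695, chromosome 11, 111066164 to 111076821) and Kcnj12 (ENSMUSG00000042529, chromosome 11, 61022564 to 61071131) encode the pore of the classical inward rectifier current that holds the resting potential of ventricular cells. Kcnj2 had 21.5, 19.8 and 18.6 CPM in MI-NS, against 34.7, 26.7 and 28.5 CPM in MI-DAPA, without overlap (1.5-fold, log2 0.58 ± 0.12, edgeR adjusted p = 0.0137). Its adjusted p was 0.0503 without MI-NS replicate 3. For Kcnj12 the values were 11.4, 10.2 and 8.25 CPM in MI-NS, against 19.5, 18.4 and 16.0 CPM in MI-DAPA. Its rise of 1.80-fold was among the larger ones (log2 0.85 ± 0.14, edgeR adjusted p = 0.00653). The ratio of Kcnj2 to Kcnj12 per kb was 1.03 ± 0.101 in MI-NS, against 0.846 ± 0.0973 in MI-DAPA (SD, n = 3), lower in each MI-DAPA library (exact permutation p = 0.1). Kcnj4, a further subunit of this current, had at most 8 counts and was not tested.

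Both genes of the acetylcholine-activated channel, through which the vagus nerve acts on heart cells, rose. The channel is best known from atrium and pacemaker tissue. Kcnj3 (ENSMUSG00000026824, chromosome 2, 55435970 to 55598145) had 12.3, 7.40 and 11.4 CPM in MI-NS, against 21.8, 15.1 and 21.8 CPM in MI-DAPA. Replicate 2 was the lowest of each group and the groups did not overlap. The change was the largest of the 12 rises at 1.88-fold (log2 0.91 ± 0.21, edgeR adjusted p = 0.0213). Kcnj5 (ENSMUSG00000032034, chromosome 9, 32314783 to 32344237) had 38.6, 27.9 and 38.4 CPM in MI-NS, against 68.2, 46.0 and 57.2 CPM in MI-DAPA, again with replicate 2 lowest in each group (1.63-fold, log2 0.71 ± 0.17, edgeR adjusted p = 0.0240). Each gene lost its call without MI-DAPA replicate 1 (log2 0.83 and 0.56) or MI-DAPA replicate 3 (0.85 and 0.73), and Kcnj5 also without MI-NS replicate 2 (0.58). The ratio of Kcnj3 to Kcnj5 was 0.287, 0.238 and 0.267 in MI-NS, against 0.287, 0.295 and 0.343 in MI-DAPA, with the replicates numbered 1 nearly level (exact permutation p = 0.1). Atrial marker genes did not rise beside them as a list: of 6 markers 5 were tested, Tbx5 rose (0.59), Nppa, which failing ventricle also expresses, fell (-2.15), Bmp10 was at 0, and the others did not pass. The atrial light chain Myl7 had 22.9, 0.196 and 15.2 CPM in MI-NS, against 0.199, 12.1 and 6.83 CPM in MI-DAPA, so it was near 0 in MI-NS replicate 2 and MI-DAPA replicate 1. Kcnj3 and Kcnj5 were lowest in the first of these libraries and at or near their highest in the second, and the part of atrial tissue in their change was not tested. Summed atrial marker levels were 1308 to 1550 CPM in MI-NS, against 295 to 416 CPM in MI-DAPA, but Nppa made up 86.7% to 98.8% of each sum. Without Nppa the sums were 68.1, 15.7 and 50.6 CPM in MI-NS, against 22.6, 55.4 and 45.6 CPM in MI-DAPA, and the groups overlapped.

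ATP-sensitive channels are built from a Kcnj pore and a sulfonylurea receptor, and the pair known from ventricular muscle rose. Kcnj11 (ENSMUSG00000096146, chromosome 7, 46098725 to 46099897), the muscle pore subunit, had 30.6, 23.8 and 29.0 CPM in MI-NS, against 48.9, 43.2 and 50.6 CPM in MI-DAPA. The gap between the groups was wide, at 1.71-fold (log2 0.78 ± 0.11, edgeR adjusted p = 0.00548), the smallest adjusted p of the 12. Abcc9 (ENSMUSG00000030249, chromosome 6, 142587862 to 142702315), its regulatory subunit in ventricular muscle and, with Kcnj8, in vascular smooth muscle and pericytes, had 226, 182 and 200 CPM in MI-NS, against 321, 294 and 301 CPM in MI-DAPA (1.5-fold, log2 0.59 ± 0.09, edgeR adjusted p = 0.00595).

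The vascular pore subunit and the second receptor gene did not pass. Kcnj8 had 29.5, 38.5 and 33.3 CPM in MI-NS, against 39.1, 30.0 and 37.0 CPM in MI-DAPA, with fully overlapping groups (log2 0.07 ± 0.13, edgeR adjusted p = 0.766). Abcc8, the receptor best known from pancreatic beta cells and atrium, had 30.5, 27.9 and 27.3 CPM in MI-NS, against 33.4, 30.4 and 33.5 CPM in MI-DAPA (log2 0.18 ± 0.09, edgeR adjusted p = 0.195). The ratio of Kcnj11 to Kcnj8 per kb of annotated exon was 0.718, 0.429 and 0.604 in MI-NS, against 0.866, 1 and 0.949 in MI-DAPA, a log2 difference of 0.71 with no overlap. For Abcc9 to Abcc8 it was 7.16, 6.3 and 7.09 in MI-NS, against 9.28, 9.33 and 8.68 in MI-DAPA (log2 difference 0.41). Both had an exact permutation p of 0.1. Of 9 subunit ratios computed, which were chosen after the values had been seen, 8 did not overlap between groups, and their adjusted p was 0.113. Among the 8 is Kcnq1 to Kcne4, whose outcome was fixed, and several others set a called gene over a gene that did not pass. No share over other gene pairs was computed, so the 8 are a description. The ratio of Kcnj11 to Abcc9 changed least, from 0.312 ± 0.0164 to 0.355 ± 0.0253 (SD, n = 3, log2 difference 0.19). These ratios come from counts of a single library and do not depend on scaling between libraries.

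**Figure D2:**
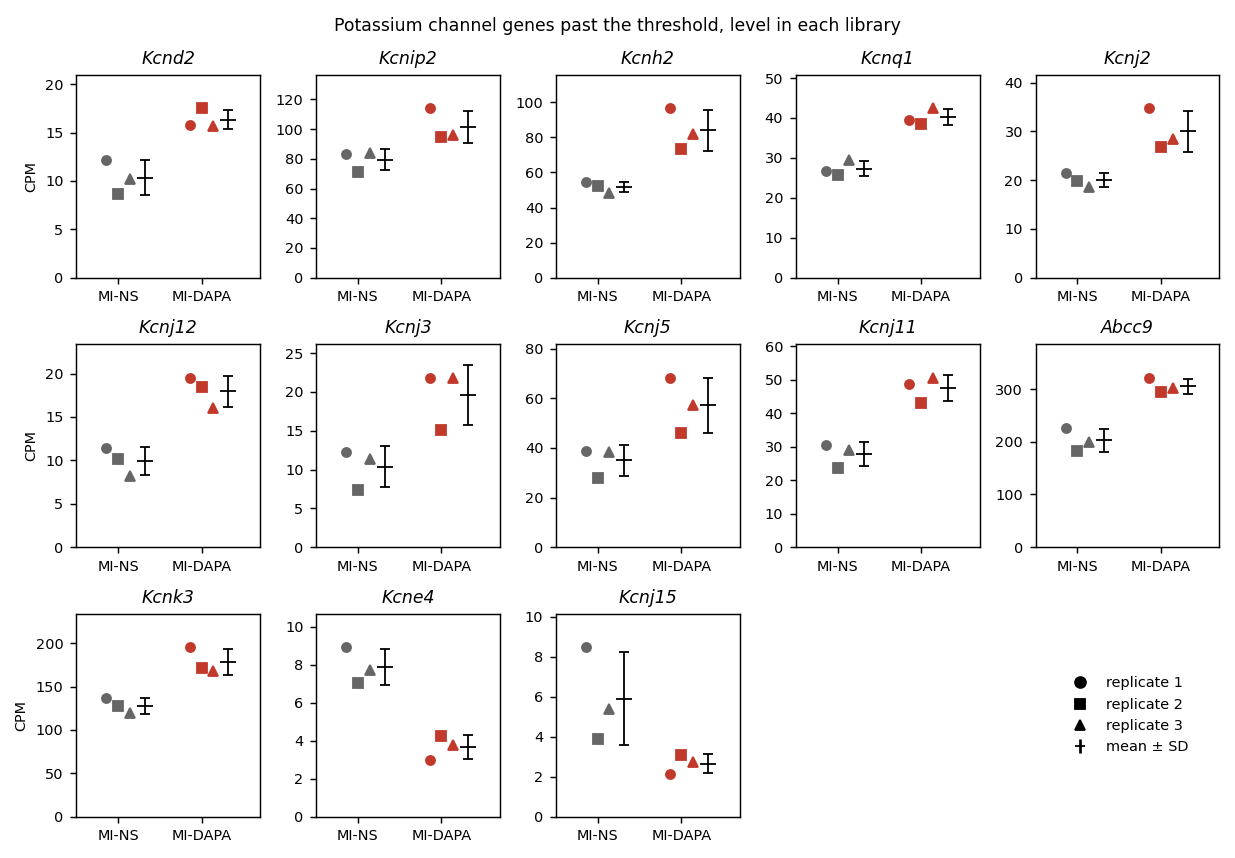
CPM of 13 genes past the threshold in each library, on linear axes from 0, with replicates 1, 2 and 3 as circles, squares and triangles and the mean ± SD beside them (n = 3). In all 13 panels the MI-NS and MI-DAPA libraries do not overlap; Kcne4 and Kcnj15 are lower in MI-DAPA and the others are higher.

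**Figure D3:**
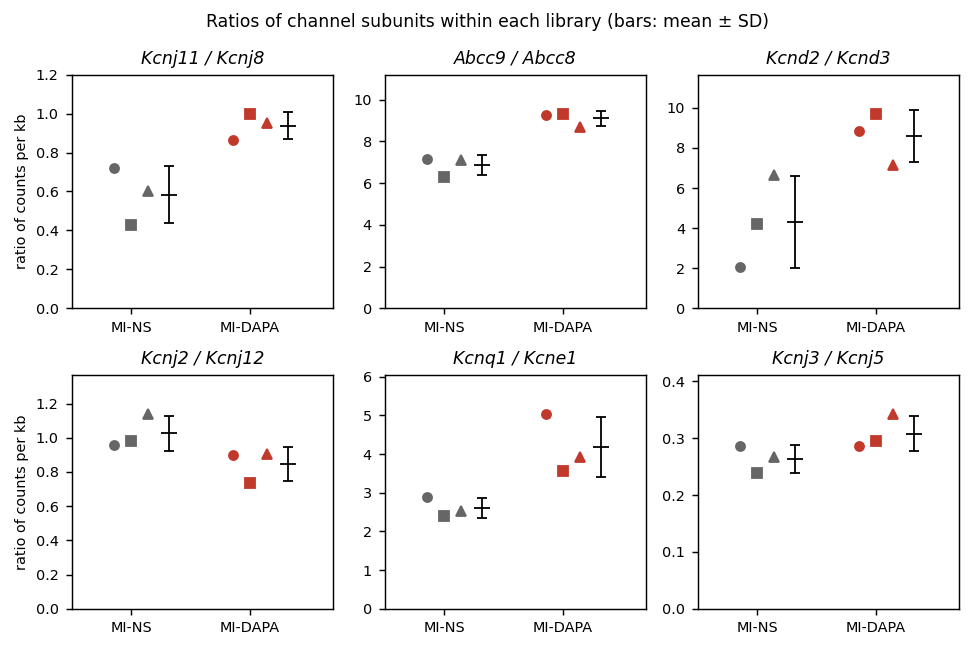
Ratio of the levels per kb of 6 pairs of channel subunits within each library, with MI-NS in grey, MI-DAPA in red, replicates 1, 2 and 3 as circles, squares and triangles, and mean ± SD. Kcnj11 to Kcnj8 moves from a mean of 0.584 to 0.939 and Kcnj2 to Kcnj12 from 1.03 to 0.846, while Kcnj3 to Kcnj5 is 0.287 in replicate 1 of both groups.

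Of the other inward rectifiers, Kcnj15 (ENSMUSG00000062609, chromosome 16, 95257558 to 95300260), known mainly from kidney, fell. Its levels were 8.47, 3.87 and 5.40 CPM in MI-NS, against 2.13, 3.10 and 2.76 CPM in MI-DAPA. MI-NS replicate 1 was the highest library by a wide margin, and the groups did not overlap (2.23-fold, log2 -1.16 ± 0.30, edgeR adjusted p = 0.0317). The call held only without MI-NS replicate 2 and was lost without any other library, with log2 changes from -1.38 to -0.79. Kcnj14 was low, at 0.891 to 1.27 CPM in MI-NS, against 0.632 to 1.79 CPM in MI-DAPA (log2 0.06 ± 0.39).

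RefSeq promoter sequence on GRCm38.p6 was available for 72 members, among them 10 of the 14 called genes. The following are the 250 bases before the annotated start of both subunits of the acetylcholine-activated channel, which rose together, of 2 abundant regulatory subunits that rose, and of Kcnj15, which fell. Capitals mark a GC box (GGGCGG) or a CACCC box (CCACCC), searched on both strands, so that GGGTGG and CCGCCC mark matches on the other strand.
Kcnj3, chr2:55435720-55435969, plus strand: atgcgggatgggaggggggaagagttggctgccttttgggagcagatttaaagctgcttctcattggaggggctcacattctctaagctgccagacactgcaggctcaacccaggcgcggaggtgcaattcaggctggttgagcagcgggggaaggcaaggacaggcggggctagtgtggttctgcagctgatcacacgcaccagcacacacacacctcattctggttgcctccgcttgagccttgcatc
Kcnj5, chr9:32344345-32344594, minus strand: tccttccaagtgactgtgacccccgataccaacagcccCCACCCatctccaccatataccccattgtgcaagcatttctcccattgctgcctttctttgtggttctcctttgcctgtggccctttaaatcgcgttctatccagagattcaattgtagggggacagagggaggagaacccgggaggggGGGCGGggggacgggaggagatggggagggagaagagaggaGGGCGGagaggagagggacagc
Kcnip2, chr19:45816064-45816313, minus strand: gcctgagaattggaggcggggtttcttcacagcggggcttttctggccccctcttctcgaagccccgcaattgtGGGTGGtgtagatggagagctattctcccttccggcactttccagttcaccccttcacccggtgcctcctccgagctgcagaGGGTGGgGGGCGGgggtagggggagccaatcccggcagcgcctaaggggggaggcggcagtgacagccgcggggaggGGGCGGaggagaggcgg
Abcc9, chr6:142702275-142702524, minus strand: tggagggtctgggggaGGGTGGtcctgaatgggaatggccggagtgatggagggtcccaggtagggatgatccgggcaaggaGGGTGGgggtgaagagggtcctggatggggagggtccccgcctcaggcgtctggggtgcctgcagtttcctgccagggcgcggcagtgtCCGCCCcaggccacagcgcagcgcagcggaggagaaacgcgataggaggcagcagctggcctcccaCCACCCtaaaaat
Kcnj15, chr16:95257308-95257557, plus strand: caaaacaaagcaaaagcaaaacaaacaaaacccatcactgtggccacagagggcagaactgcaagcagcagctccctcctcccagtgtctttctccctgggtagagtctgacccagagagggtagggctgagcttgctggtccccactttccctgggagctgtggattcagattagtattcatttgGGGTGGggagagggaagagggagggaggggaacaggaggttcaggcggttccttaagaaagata

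The CACCC box, the kind of site read by Krüppel-like factors, lay in 43 of the 72 members' promoters (59.7%) and in 27.7% of 27025 promoters of the same length. A GC box lay in 36 of them (50%), against 32.9%. Among the 10 called genes with an entry, 8 held a CACCC box and 6 a GC box. Kcnj3 held neither. The windows of Kcnh2 (chr5:24329592-24329841) and Kcnj12 (chr11:61065554-61065803), counted here, lay well inside the deposited spans of these genes, not before their outer start. TATAAA and AGATAA, the letters of the TATA box and of a GATA site, were in 0 of the 10. They were in 2.78% and 1.39% of the 72 members' promoters and in 13% and 10.3% of all promoters. The E-box CACGTG was in Kcne4 and Kcnj2, beside 5.56% of the members' and 6.05% of all promoters. These are matches of letters in a window and do not show binding. The 27025 promoters were not matched to the members for GC content, so these shares are a description. GC content was 58.4% for Kcnj3, 58% for Kcnj5, 66.8% for both Kcnip2 and Abcc9 and 53.2% for Kcnj15.

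Tandem-pore channels included the member with the highest level per length. Kcnk3 (ENSMUSG00000049265, chromosome 5, 30588170 to 30625271) had 137, 127 and 119 CPM in MI-NS, against 195, 171 and 168 CPM in MI-DAPA. The groups did not overlap, and the rise was 1.40-fold (log2 0.48 ± 0.09, edgeR adjusted p = 0.00912) and kept its call with each library left out. A gene model on the opposite strand, Gm9899, shares exon bases with it and had at most 293 counts, against 3935 for Kcnk3. Kcnk2, which encodes the stretch-sensitive channel TREK, had 3.01, 3.58 and 3.27 CPM in MI-NS, against 2.93, 3.00 and 2.87 CPM in MI-DAPA. The groups were separated by less than their spread, and the gene did not pass (log2 -0.16 ± 0.18, edgeR adjusted p = 0.570). Kcnk6 ranged from 6.77 to 8.48 CPM in MI-NS and from 3.82 to 8.31 CPM in MI-DAPA (log2 -0.35 ± 0.26, edgeR adjusted p = 0.393). Kcnk13, known from microglia, had 29, 18 and 22 MI-NS counts, against 15, 8 and 13 counts in MI-DAPA, and Kcnk5 had 24, 16 and 21 against 16, 9 and 6. Neither passed, at log2 changes of -0.88 ± 0.36 and -0.94 ± 0.40 (edgeR adjusted p = 0.133 and 0.144). Kcnk1 had at most 11 counts and was not tested.

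Calcium- and sodium-activated channels gave no call over all libraries: of 12 members 8 were tested, 0 rose and 0 fell by edgeR, with 3 at an unadjusted p under 0.05 and 0 called by DESeq2. Kcnn1, a small-conductance channel gene, had 10.9, 11.9 and 9.38 CPM in MI-NS, against 16.0, 12.0 and 15.7 CPM in MI-DAPA. Its MI-DAPA replicate 2 lay level with the highest MI-NS library, and the log2 change was 0.44 ± 0.14 (edgeR adjusted p = 0.0724), past the threshold without that library (0.57, edgeR adjusted p = 0.0319). Kcnn2, the most studied of this class in heart, had 8.91, 9.36 and 9.03 CPM in MI-NS, against 12.2, 8.36 and 11.1 CPM in MI-DAPA (log2 0.21 ± 0.15, edgeR adjusted p = 0.378). Kcnn3 had 7, 6 and 43 MI-NS counts, against 26, 12 and 22 counts in MI-DAPA, where MI-NS replicate 3 alone was high (log2 0.06 ± 0.77). Kcnt2, a sodium-activated channel, had 6.47, 6.03 and 4.69 CPM in MI-NS, against 4.07, 3.84 and 4.31 CPM in MI-DAPA (log2 -0.50 ± 0.17, edgeR adjusted p = 0.0792). Kcnn4, the intermediate-conductance channel of blood and immune cells, had 18, 14 and 12 MI-NS counts, against 6, 9 and 7 counts in MI-DAPA. It entered the test only through its MI-NS counts, and its log2 change of -0.94 ± 0.36 did not pass (edgeR adjusted p = 0.111). The large-conductance channel gene Kcnma1 had 29, 15 and 14 counts against 5, 18 and 3 (log2 -1.10 ± 0.57), with MI-DAPA replicate 2 far above its group, and passed without that library (-2.13, edgeR adjusted p = 0.0327), when it entered the test only through its MI-NS counts. Kcnmb1, its smooth muscle beta subunit, was at 2.92 ± 0.165 and 2.99 ± 0.208 CPM (SD, n = 3).

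Tested members outside these groups did not pass. Kcng2, a silent modifier subunit that acts by joining other Kv subunits, was abundant at 55.0, 67.6 and 46.2 CPM in MI-NS, against 85.1, 74.9 and 60.7 CPM in MI-DAPA. MI-DAPA replicate 3 lay below MI-NS replicate 2, and the log2 change was 0.39 ± 0.16 (edgeR adjusted p = 0.132). On the opposite strand D330025C20Rik shares exon bases with it, with at most 279 counts against 1715 for Kcng2. The related Kcnv2 had 6.70 ± 1.15 and 8.21 ± 1.19 CPM (SD, n = 3, log2 0.29 ± 0.17). Kcna7, a Kv subunit gene of striated muscle, had 8.42, 5.44 and 7.48 CPM in MI-NS, against 15.4, 9.25 and 9.76 CPM in MI-DAPA. The groups were separated, but the gene did not pass (log2 0.69 ± 0.23, edgeR adjusted p = 0.0771), while DESeq2 called it (0.70, adjusted p = 0.0242). Kcna1, Kcna2, Kcna6, Kcnc1, Kcnc2, Kcnd1, Kcnq5, Kcnab1, Kcnab2, Kcne3, Kcnip3 and Kcnt1, had log2 changes from -0.63 (Kcna6) to 0.66 (Kcnq5) with group means of at most 2.79 CPM.

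**Figure D4:**
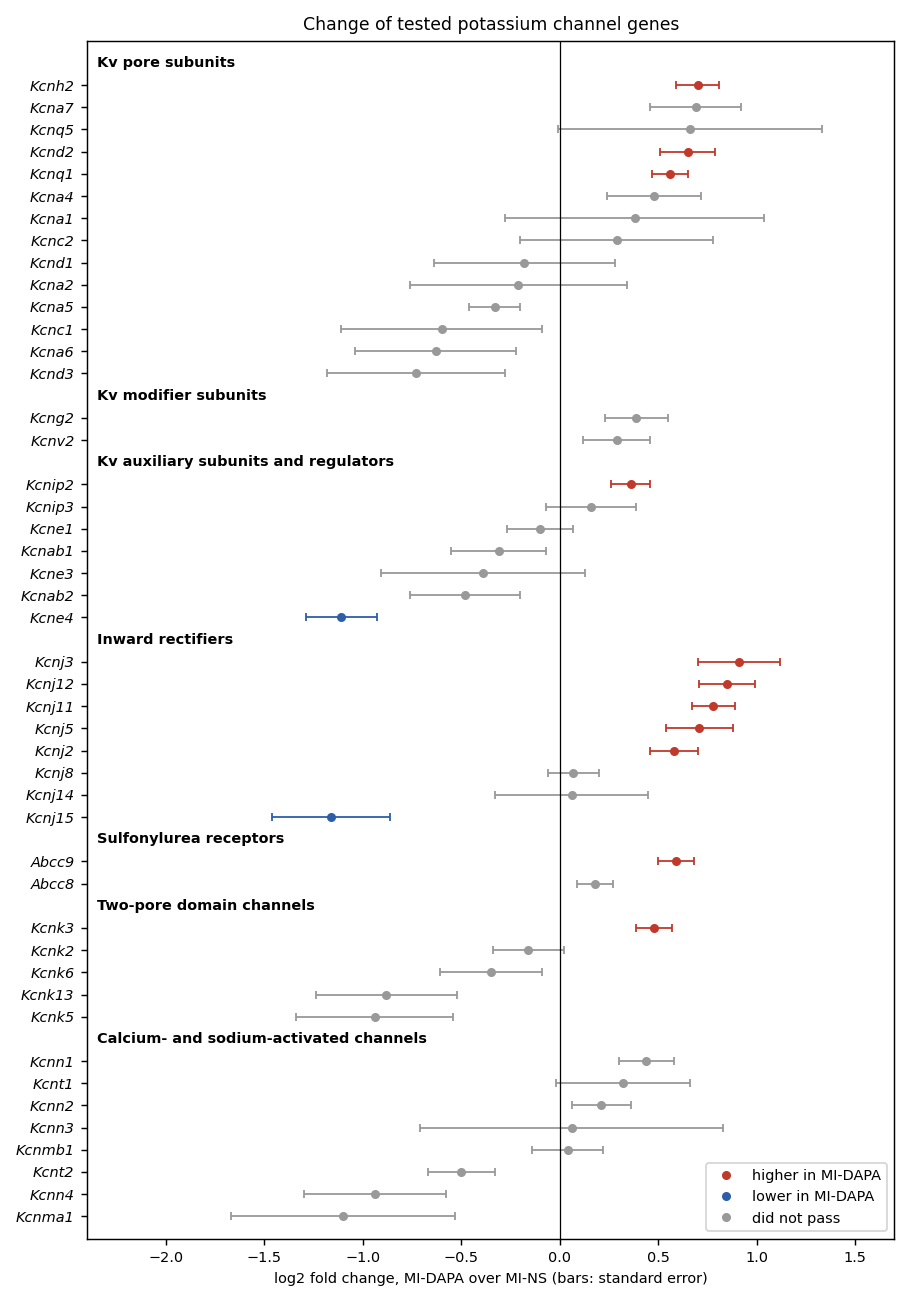
Log2 fold change of MI-DAPA over MI-NS for 46 of the 49 tested members, ordered within each class, with bars for the standard error of the fit (n = 3 per group) and colours for the call. The rises lie between 0.36 and 0.91 with short bars, 5 of them among the inward rectifiers, and members at low counts such as Kcnn3 have bars of up to 0.77.

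Members below the count limit numbered 51. Of these 22 had 0 counts in every library, among them Kcnj1, Kcnj6, Kcnj9, Kcnj13 and Kcnj16, Kcnk9, Kcnk12, Kcnk15, Kcnk16 and Kcnk18, Kcnh4, Kcnh5 and Kcnh7, Kcnip4, Kcnmb2 and Kcnmb3. The other members at 0 were Kcna10, Kcng3, Kcns2, Kcnu1 and both antisense transcripts of Kcnmb4. A count of 0 allows up to 3 counts, or 0.133 to 0.178 CPM in these libraries, for counting error only. The other 29 had highest counts of 1 to 18. Kcnb2, Kcnf1, Kcnk4, Kcnk7, Kcnk10 and Kcnv1 had at most 1 count, and the antisense transcript Kcnab3os at most 2. Kcne2, Kcnh6, Kcnh8 and Kcnrg had at most 3. Kcna3, the Kv channel of lymphocytes, had at most 4, and Kcnj10, a glial inward rectifier, at most 5. The highest count was 6 for Kcns1, 7 for Kcns3 and 8 for Kcng1, Kcng4, Kcnh1, Kcnj4 and Kcnq3. It was 9 for Kcnc4 and Kcne1l, 10 for Kcnh3 and Kcnmb4, and 11 for Kcnd3os and Kcnk1. Just outside the limit were Kcnip1 (5, 6 and 13 MI-NS counts, against 18, 8 and 6 counts in MI-DAPA) and Kcnab3 (12, 17 and 6 against 9, 4 and 0). Just inside were Kcnq5 (4, 18 and 2 against 15, 15 and 7) and Kcnn4.

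Genes known to bind or regulate these channels were examined as a separate list of 36, of which 33 were tested, 10 rose, 5 fell and 18 did not pass, with a median log2 change of 0.28. Of the tested partners 30.3% were higher and 15.2% lower, beside 8.65% and 7.81% of all tested genes. Klf15, a transcription factor reported in mice to drive Kcnip2, rose from 35.5 ± 1.24 to 53.6 ± 3.62 CPM (SD, n = 3, log2 0.59 ± 0.08, edgeR adjusted p = 0.00498). Among genes that place or anchor channels, Ank2 (0.73 ± 0.13), Ank3 (0.60 ± 0.12) and Akap9 (0.42 ± 0.09), which anchors a kinase to Kcnq1 channels, rose. So did the sarcomere protein Actn2 (0.33 ± 0.07), which is also counted among the cardiomyocyte markers. The others that rose were Fgf13 (0.60 ± 0.10), Alg10b and Lrrc10. Both receptors that open the acetylcholine-activated channel in heart rose, the muscarinic receptor Chrm2 from 59.3 ± 9.45 to 86.1 ± 7.94 CPM (log2 0.54 ± 0.12, edgeR adjusted p = 0.0226) and the adenosine receptor Adora1 from 12.4 ± 0.156 to 19.1 ± 2.10 CPM (log2 0.62 ± 0.11, edgeR adjusted p = 0.00729). Rgs4, which shortens G protein signals, fell from 23.2 ± 0.697 to 15.2 ± 0.628 CPM (log2 -0.61 ± 0.09, edgeR adjusted p = 0.00505), as did the G protein subunit Gnb1, the calmodulin gene Calm2, Pias3 and the kinase Sgk1. The related Rgs6 went the other way, with every MI-DAPA library above every MI-NS library. It did not pass (log2 0.60 ± 0.18, edgeR adjusted p = 0.0520). Irx3 and Irx5, transcription factors that shape the gradient of Kcnd2 across the mouse ventricular wall, did not pass (0.28 ± 0.11 and 0.26 ± 0.20).

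Other cell types' markers moved the other way, beside the falls of Kcne4 and Kcnj15. Of 10 markers each, 6 fibroblast, 2 macrophage, 4 endothelial and 3 smooth muscle and pericyte genes fell and 0 rose in any of these lists, with median log2 changes of -0.84, -0.34, -0.30 and -0.22. Of 12 nerve and Schwann cell markers 7 were tested and 3 fell, with summed levels of 30.3 to 35.3 CPM in MI-NS, against 20.3 to 24.4 CPM in MI-DAPA and the neuronal markers Th and Snap25 near 0. Of 6 adipocyte markers 2 were tested and Fabp4 fell (-0.43). Summed fibroblast levels were 2130 to 2953 CPM in MI-NS, against 1129 to 1360 CPM in MI-DAPA. Macrophage levels were 217 to 260 and 166 to 192 CPM, endothelial levels 1241 to 1371 and 1060 to 1120 CPM, and smooth muscle and pericyte levels 2856 to 2934 and 2665 to 2848 CPM. Des, which cardiomyocytes also express, made up 53.7% to 63% of the last sums, which were 1235 to 1357 and 1054 to 1092 CPM without it. The adipocyte sums of 748 to 884 and 588 to 607 CPM were at least 99.5% Fabp4, which endothelial cells also express, and the other 5 adipocyte markers together had at most 3.77 CPM. The part of these cell types in the members' changes was not tested.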

How the data were processed

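The authors gave a file of raw counts for each library, with 34745 named genes. Per the submitters' processing notes, mm10, StringTie 1.3.0 and edgeR were used, with no role stated; aligner, counter and strand setting are unknown here, so overlapping genes on opposite strands may share reads. Library totals were 17207974 to 20563188 counts, of which 34.3% to 42% were from the mitochondrial chromosome. Groups and replicate numbers were taken from the sample titles. All library pairs differed by more than sampling noise (lowest chi-square over degrees of freedom 10.4).

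Counts were tested with edgeR 4.0.16 in R 4.3.3 (TMM factors, glmQLFit and glmQLFTest, Benjamini-Hochberg over 13984 genes with at least 10 counts in at least 3 libraries, threshold 0.05). Standard errors are the absolute log2 change divided by the square root of F. Exon lengths came from GENCODE M21, where all 100 members matched by identifier and 67 had the deposited coordinates. Coordinates of genes are those deposited. Single ratios were tested by exact two-sided permutation. The steps were tested on simulated data. The members and gene lists were chosen with earlier results of these data known. Text values were given for tested genes of the current lists, called members, the 3 highest per length in each class, called partners, and others chosen after their values were seen. The values of 4 members are not reported here, while counts and medians over lists include them. Alternatives were other scalings, filters, DESeq2 1.42.0, a replicate block and left-out libraries.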

Additional observations from a re-analysis of the deposited data

How the results depend on the processing

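The 14 called members kept their direction under every alternative run. With libraries left out this was fixed, because the groups did not overlap in any of the 14. All 14 stayed called with RLE scaling, with TMM without the mitochondrial chromosome, with filterByExpr, without a filter and with DESeq2. With library totals as the only scaling the all-gene median moved by -0.10 (log2), all genes higher and lower numbered 411 and 1250 (against 1210 and 1092), 8 members rose and 2 fell, 5 partners rose, and the median change of members turned from 0.09 to -0.02; Kcnd2, Kcnip2, Kcnj2 and Kcnk3 lost their calls. Without a filter 3 partners fell. Without replicate 3 in both groups 7 genes were higher and 15 lower, 0 members rose, 0 fell, 0 partners rose, 0 fell, and the members' median was 0.18; the cause was not tested beyond the smaller number of libraries. With single libraries left out, higher genes ranged from 548 to 1073 and lower genes from 471 to 874, members that rose from 8 to 12 and that fell from 1 to 2, partners that rose from 4 to 12 and that fell from 2 to 4, and the members' median from 0.07 to 0.18. The low counts of all genes came without MI-NS replicate 3 (659 and 538), MI-DAPA replicate 1 (548 and 471) and MI-DAPA replicate 3 (684 and 501).

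Deviations of same-numbered libraries from their group means correlated at 0.04, 0.00 and 0.11, and not every pair was over 0.1, so the numbers were not taken to pair the libraries. The highest of all 9 correlations was that of the replicates numbered 3, which also had the lowest chi-square over degrees of freedom between groups (28.2), while MI-NS replicate 2 correlated best with MI-DAPA replicate 1. With the replicate number as a block in the edgeR fit, 14 members rose, 2 fell, 12 partners rose, 1271 genes were higher and the members' median was 0.17. Kcna5 (-0.33), Kcna7 (0.68) and Kcng2 (0.39) then passed and Kcnj15 (-1.10) did not. Kcna7 also passed without a filter and with DESeq2. Standard errors of the log2 changes of tested members ran from 0.09 to 0.77, which limits what 3 libraries per group could show.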
